A study of Homo sapiens with 31 samples.

Results

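Nutlin-3 was added to H460 cells for 6 h and the messenger RNA was compared with that of untreated cells. H460 cells are an established line from a human large cell carcinoma of the lung. The comparison holds 7 of the 31 libraries of the series, chosen by their labels alone: 3 of cells given Nutlin-3 at 30 µM and 4 of Control cells. Each sample joined the cells of 2 wells of a 6-well plate, treated the day after plating. The labels describe Control cells as untreated and name no solvent control. Per the labels, all the groups were grown in the same serum-supplemented medium. Libraries of 3 other groups were used where they show how the response differs: Rita at 50 µM (4 libraries), B87 at 1 µM with DMKG at 5 mM and Nutlin-3 at 30 µM (4 libraries), and B87 with DMKG without Nutlin-3 (4 libraries). B87 is an inhibitor of respiratory complex I, and DMKG is dimethyl α-ketoglutarate, a cell-permeable ester of a tricarboxylic acid cycle intermediate. The labels do not say whether the samples of a group were cultured on separate days, so the p-values given here reflect only how these samples scattered, and part of that scatter may be technical.

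The transcription factor p53 is kept scarce in unstressed cells by MDM2, a ubiquitin ligase that binds its transactivation domain and marks it for degradation. Nutlin-3 is a cis-imidazoline that occupies the p53-binding pocket of MDM2, so that p53 protein accumulates without DNA damage. p53 then binds response elements near genes of cell cycle arrest, apoptosis, DNA repair and metabolism, and MDM2 itself is one of them, which closes a feedback loop. The cyclin-dependent kinase inhibitor p21, product of CDKN1A, keeps RB family proteins bound to E2F, and genes of DNA replication and mitosis are then repressed. RNA levels alone were measured here, and no protein.

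The sequences of some of these genes show the letters p53 reads. The p53 consensus is made of 2 copies of a 10-base element, and each stretch printed here was taken from RefSeq (GRCh38.p14) and ends at or before a transcription start, 5′ to 3′ on the gene's strand. Capitals mark the best match to the 20-base consensus, which had 2 mismatches in MDM2 and FAS and 3 in SESN1, FDXR and RPS27L. The stretches lie at chr12:68808877-68808996 on the plus strand (MDM2), chr10:88991271-88991390 on the plus strand (FAS), chr6:109008989-109009108 on the minus strand (SESN1), chr17:74872995-74873114 on the minus strand (FDXR) and chr15:63157478-63157597 on the minus strand (RPS27L). Those of MDM2, FAS and SESN1 lie before an internal start, downstream of another annotated start of the gene. They are shown because the RNA of all 5 genes rose with Nutlin-3.
MDM2: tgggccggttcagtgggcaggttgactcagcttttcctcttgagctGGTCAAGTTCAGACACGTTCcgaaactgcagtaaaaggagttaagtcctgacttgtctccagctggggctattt
FAS: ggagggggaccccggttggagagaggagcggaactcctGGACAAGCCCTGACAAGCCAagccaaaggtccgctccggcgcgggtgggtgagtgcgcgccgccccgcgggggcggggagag
SESN1: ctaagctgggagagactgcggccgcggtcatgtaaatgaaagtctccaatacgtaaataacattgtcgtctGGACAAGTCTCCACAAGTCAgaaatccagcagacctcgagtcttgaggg
FDXR: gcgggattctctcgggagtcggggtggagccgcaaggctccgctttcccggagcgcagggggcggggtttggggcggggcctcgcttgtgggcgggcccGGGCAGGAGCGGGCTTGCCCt
RPS27L: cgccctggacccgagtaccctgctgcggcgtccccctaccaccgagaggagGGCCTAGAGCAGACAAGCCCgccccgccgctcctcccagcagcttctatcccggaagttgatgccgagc
The windows searched ran from 250 bases before to 50 bases after each annotated start, and 9744 of 13016 tested genes had at least 1 window. A match with at most 3 mismatches stood in a window of 20 of 74 p53 target genes with windows (27.0%), against 580 of all 9744 genes (5.95%). With at most 2 mismatches it stood in 6 of the 74 (8.11%) and in 62 of the 9744 (0.636%). Not all p53 target genes with a match rose. AEN and GLS2, with at most 2 mismatches, and COBLL1, KITLG, TGFA and TLR3, with 3, were not called. Among genes called higher by at least 1 log2 unit the wider match stood in 42 of 296 (14.2%), and among those called lower by as much in 15 of 310 (4.84%). The windows of CDKN1A, BTG2 and BBC3 held none, which says only that these letters are not within these windows. A match is a description of the sequence and not evidence of binding.

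The libraries were deep and their group labels held up against the gene Nutlin-3 acts on. Whole reads recovered from the values numbered 50.7 M to 75.7 M per Nutlin-3 library and 45.9 M to 53.2 M per Control library, and 33.4 M to 82.5 M across the series (M, megareads). Even numbers made up 55.8% to 59.2% of recovered counts under 1000 in the libraries of the series, so a unit counted here may be a read end and not a fragment. Reads of mitochondrially encoded rows made up 2.42%, 4.33% and 5.39% of the Nutlin-3 libraries and 1.49% to 2.15% of the Control libraries; the part of this difference in the results was not tested. Nutlin-3 libraries also varied more, with a median SD of log2 values of 0.221 per row, against 0.136 in Control libraries. Among epithelial markers KRT8, KRT18 and KRT19 were abundant, and the summed level of the list was 223300 to 289500 in Nutlin-3 libraries and 272800 to 306400 in Control libraries. Of 9 tested members 3 were called lower (33.3%, against 20.7% of all rows) and 0 higher. CD24 was lower by 0.84, KRT8 by 0.38 and KRT18 by 0.28 on the log2 scale. With equal library totals 6 were lower, and without Nutlin-3 library 3 only 1. The alveolar and airway genes SFTPB, SFTPA1 and SCGB1A1 were at 0 in both groups, as were the leukocyte genes CD3E, CD3D and MS4A1 and the endothelial genes PECAM1, CDH5, TEK and CLDN5. The leukocyte list summed to 115 to 138 in Nutlin-3 libraries and 203 to 250 in Control libraries, nearly all of it CD14, which was called 0.84 log2 units lower (adjusted p = 0.027), a call lost without Control library 2, Nutlin-3 library 2 or Nutlin-3 library 3. KDR, an endothelial receptor, was at 0 to 3.22 in Nutlin-3 libraries and 6.39 to 12.8 in Control libraries and was called lower, a call lost without Control library 1 or Nutlin-3 library 3. The part of these markers in the results was not tested. Of the fibroblast rows COL1A1 led, and the list summed to 745 to 1098 in Nutlin-3 libraries and 945 to 1024 in Control libraries. RNA of bulk cultures was measured, so fewer cells of a kind and less RNA per cell cannot be told apart.

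Nutlin-3 changed a large part of the transcriptome. Of 16259 rows tested, 6359 were called at an adjusted p under 0.05 (39.1%), of which 3000 were higher with Nutlin-3 (18.5%) and 3359 lower (20.7%). Most changes were small: 1223 of the called rows differed by at least 1 on the log2 scale. Values of the 3 Nutlin-3 libraries did not overlap those of the 4 Control libraries in 6810 rows (41.9%). Rows without a gene symbol gave 342 higher and 205 lower calls among 2416 tested and are described here by these counts only. With each library scaled to the same total, the median change of all rows was -0.14 in place of -0.0083 log2 units, and the split of calls was 2052 higher and 4667 lower (30.5% higher, against 47.2%).

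MDM2, the target of the compound, had normalized read counts of 61920, 76150 and 79680 in the Nutlin-3 libraries, against 6691, 6062, 6538 and 6808 in the Control libraries. Every Nutlin-3 library stood far above every Control library, a mean 11.1-fold apart. The log2 fold change, taken on normalized value + 1 as throughout, was 3.47 ± 0.09 (SE, adjusted p = 5.4e-23, limma). Its p53 match stands among the sequences printed for these genes.

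Other regulators of p53 moved in both directions. PPM1D, the phosphatase WIP1 that dephosphorylates p53 and its kinases, was at 2062, 2294 and 2086 in Nutlin-3 libraries and at 814 to 878 in Control libraries (1.33 ± 0.09, adjusted p = 1e-12). MDM4, the MDM2 relative that blocks p53 without degrading it efficiently on its own, rose less, by 0.56 ± 0.14 (adjusted p = 0.0015). RCHY1, a ubiquitin ligase also called PIRH2 that targets p53, was at 554, 459 and 502 with Nutlin-3, against 1038, 1015, 939 and 1050 in Control, and fell by 1.00 ± 0.17 on the log2 scale (adjusted p = 2.2e-05). COP1, another ligase for p53, fell by 0.53 on that scale (adjusted p = 0.0040). USP7, the deubiquitinase of MDM2 and p53, and CCNG1, a classical p53 target, differed by 0.15 and -0.36 and were not called (adjusted p = 0.30 and 0.073). CDKN2A, whose ARF product inhibits MDM2, had at most 0.802 normalized counts in any of the 7 libraries.

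Across 5 lists of p53 target genes, 96 genes were listed and 87 passed the filter on low values. Of these 87, 73 rose (83.9%, against 18.5% of all rows), 2 fell and 12 were not called. The median was 1.06 log2 units, against -0.0083 over all rows, and 45 rose by at least 1 unit. In 76 of the 87 the groups did not overlap (41.9% of all rows). The 2 that fell were PERP, a desmosomal protein, by 0.21 on the log2 scale, and STEAP3, a metalloreductase of iron uptake, by 0.81. Without Control library 3, 73 rose; without Nutlin-3 library 3, 69 rose; and with equal library totals, 68 rose.

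**Figure D1:**
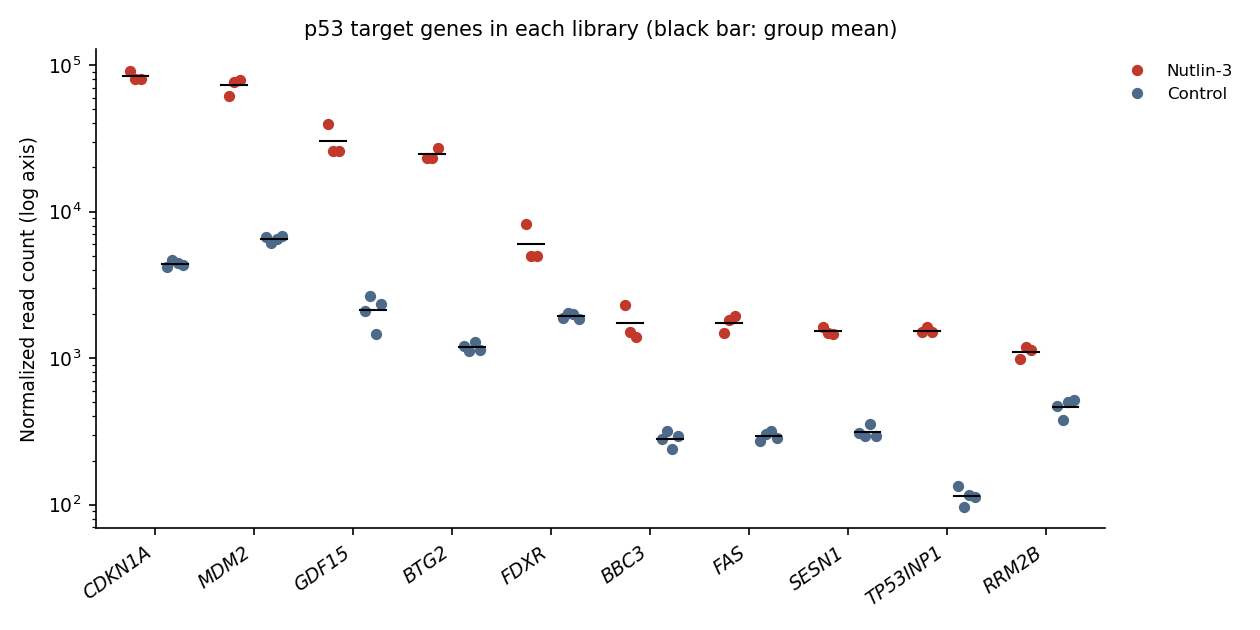
Normalized read count of 10 p53 target genes on a log axis, 1 point per library, with Nutlin-3 libraries left of Control libraries and a black bar at each group mean. In all 10 genes the 3 Nutlin-3 libraries sit above the 4 Control libraries; the gap is widest for BTG2 and CDKN1A and narrowest for RRM2B.

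Growth arrest genes had the largest median of the lists, 1.80 log2 units, and 12 of 13 tested members rose. CDKN1A was at 91710, 80660 and 80390 with Nutlin-3, against 4173, 4669, 4472 and 4342 in Control, 4.25 ± 0.11 log2 units higher (adjusted p = 6.9e-24). BTG2, an antiproliferative cofactor of mRNA deadenylation, was at 23210, 23310 and 27220 with Nutlin-3, against 1212, 1112, 1297 and 1135 in Control (4.37 ± 0.11, adjusted p = 6.9e-24). These were separations of 19.1-fold and 20.7-fold between group means. GADD45A, which binds PCNA and p21 and takes part in the G2/M checkpoint, was at 15810, 19830 and 21460 with Nutlin-3 and at 1526 to 2297 in Control (3.31 ± 0.14). TP53INP1, a stress-induced partner of p53 signalling, was at 1497, 1620 and 1510, against 133, 97.0, 116 and 113 in Control (3.75 ± 0.19, adjusted p = 6.8e-16). PRDM1, the transcriptional repressor BLIMP1, averaged 1215 ± 126 with Nutlin-3 and 103 ± 9.19 in Control (SD, n = 3 and 4). PLK2, a polo-like kinase and p53 target in other settings, was the member without a call, at 9449, 10640 and 9856 with Nutlin-3 and 9835 to 10640 in Control.

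Among apoptosis genes and death receptors, 14 of 17 tested members rose, 1 fell and 2 were not called. BBC3, which encodes the BH3-only protein PUMA, was at 2313, 1506 and 1388 with Nutlin-3, against 281, 318, 239 and 293 in Control (2.58 ± 0.20, adjusted p = 1.1e-11). FAS, the death receptor CD95, was at 1482, 1814 and 1948 with Nutlin-3, against 271, 304, 320 and 284 in Control (2.56 ± 0.15, adjusted p = 1.3e-14). Both genes were about 6-fold higher in the mean (6.14-fold and 5.93-fold). The pore-forming BAX and the BH3-only PMAIP1, which encodes NOXA, rose less, by 0.88 ± 0.10 and 0.95 ± 0.16 log2 units. EDA2R, a death-domain receptor of the TNF family, rose by 2.08 ± 0.21, and the decoy receptor gene TNFRSF10C by 3.37 ± 0.39 from Control values of 9.84 to 22.4. APAF1, the apoptosome scaffold, and AEN, an apoptosis-linked nuclease, differed by 0.32 and 0.23 and were not called (adjusted p = 0.10 and 0.28).

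The wider cell death machinery did not move as 1 block. In the BCL2 family list, 4 of 13 tested members rose and 5 fell (30.8% and 38.5%, against 18.5% and 20.7% of all rows). Besides BBC3, BAX and PMAIP1, the effector BAK1 rose by 0.81 log2 units. Among those that fell were the survival gene BCL2L1 by 0.48 and the BH3-only genes BID by 0.74 and BCL2L11 by 0.42 on the log2 scale. The survival gene MCL1 had normalized counts of 27430, 26480 and 26430 with Nutlin-3 and 24730 to 29210 in Control, a difference of -0.019 with no call. Of 13 inhibitors of apoptosis and caspases, 2 rose and 5 fell (15.4% and 38.5%, against 18.5% and 20.7% of all rows). Without Nutlin-3 library 1, 5 rose. CASP2, a caspase activated downstream of PIDD1, was at 1107, 1383 and 1201 with Nutlin-3, against 2481, 2196, 2486 and 2789 in Control (-1.02 ± 0.10, adjusted p = 2.1e-09). BIRC3, an inhibitor of apoptosis protein, was at 167, 171 and 126 with Nutlin-3, against 377, 328, 358 and 356 in Control (-1.21 ± 0.24, adjusted p = 0.00021).

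All 10 tested genes of the DNA repair and nucleotide supply list rose, with a median of 1.14 log2 units. With equal library totals, 9 of them rose. XPC, the damage sensor of nucleotide excision repair, was at 7181, 7692 and 7022 with Nutlin-3, against 2803, 2705, 2486 and 2906 in Control (1.42 ± 0.08, adjusted p = 5.9e-15). POLH, the translesion polymerase eta, rose by 1.59 ± 0.10. RRM2B, the p53-inducible small subunit of ribonucleotide reductase, was at 991, 1187 and 1141 with Nutlin-3, against 474, 378, 499 and 517 in Control (1.25 ± 0.15). FDXR, a mitochondrial reductase of iron-sulfur cluster synthesis, was at 8176, 5001 and 4987 with Nutlin-3, against 1873, 2045, 1994 and 1845 in Control (1.60 ± 0.16). Library 1 of Nutlin-3 was the highest of the 3 for FDXR and also for GDF15, BBC3 and PHLDA3.

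In the list of metabolism, redox and lysosome genes, 15 of 20 tested members rose and 1 fell. SESN1, a stress-induced inhibitor of mTORC1 signalling, was at 1643, 1478 and 1457 with Nutlin-3, against 308, 293, 358 and 296 in Control (2.28 ± 0.17, adjusted p = 6.7e-12). PRKAB1, a subunit of the energy sensor AMPK, was at 2078, 2526 and 2489 with Nutlin-3, against 639, 610, 528 and 629 in Control (1.97 ± 0.12). TIGAR, a phosphatase that lowers fructose-2,6-bisphosphate, rose by 1.32 ± 0.08. Of 17 tested glycolytic genes, 6 fell (35.3%, against 20.7% of all rows) and 11 were not called, with a median of -0.11; without Nutlin-3 library 3, 3 fell. HK2, hexokinase 2, was at 3444, 3927 and 3762 with Nutlin-3, against 4151, 3489, 3831 and 3971 in Control, with no call (-0.056 ± 0.098). SLC2A1, the glucose transporter GLUT1, was at 14140, 10560 and 9956 with Nutlin-3, against 16680 to 17130 in Control, and fell by 0.57 ± 0.11 on the log2 scale (adjusted p = 1e-04).

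The longest p53 list mixed secreted and surface proteins with intracellular ones such as ATF3, RRAD and ZNF79, and 22 of its 27 tested members rose while 5 were not called. GDF15, a stress-induced cytokine of the TGF-β family, was at 39320, 25920 and 26020 with Nutlin-3, against 2105, 2649, 1451 and 2335 in Control (3.84 ± 0.20, adjusted p = 1.1e-15). A p53 consensus match with 3 mismatches lies 29 bases into its transcript, at chr19:18386186-18386205 on the plus strand of GRCh38.p14.
GDF15: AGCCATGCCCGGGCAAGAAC
INPP5D, the inositol phosphatase SHIP1, was at 798, 635 and 784 with Nutlin-3, against 59.8, 48.0, 35.8 and 58.0 in Control (3.87 ± 0.30). Inflammatory genes outside the p53 lists moved less uniformly, with 6 of 15 higher and 2 lower, against 18.5% and 20.7% of all rows. IL6 was at 9211, 13710 and 17470 with Nutlin-3, against 5637, 6125, 4949 and 4927 in Control (1.27 ± 0.18, adjusted p = 1.8e-06). The counts of this list fell to 3 higher and 2 lower without Nutlin-3 library 3, and to 3 higher and 3 lower with equal library totals.

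**Figure D2:**
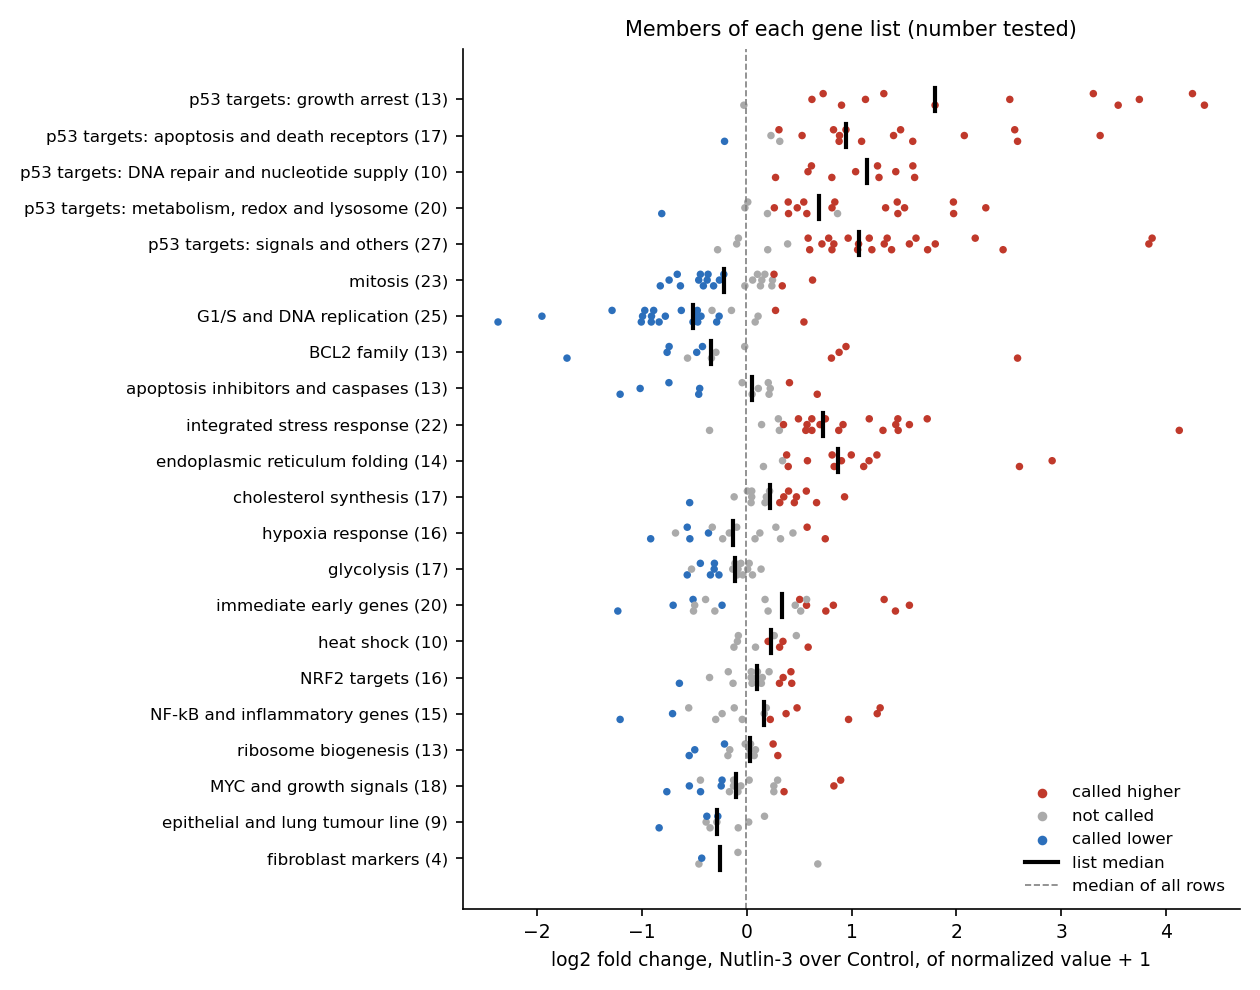
Each point is the log2 fold change, Nutlin-3 over Control, of 1 tested member of a gene list; red points were called higher, blue points lower and grey points not called, black bars are list medians and the dashed line is the median of all rows. The medians of the p53 target lists, the integrated stress response and the endoplasmic reticulum list lie right of the line, and that of the replication list lies left of it at -0.51.

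Genes of the G1/S transition and DNA replication fell together. Of 25 tested, 19 fell, 2 rose and 4 were not called, with a median of -0.51 log2 units (20.7% of all rows fell). CCNE2 and CCNE1 encode the E-type cyclins that drive CDK2 at the start of S phase. CCNE2 was at 135, 190 and 209 with Nutlin-3, against 936, 752, 988 and 992 in Control (-2.37 ± 0.17, adjusted p = 4.9e-12). CCNE1 was at 184, 151 and 173 with Nutlin-3, against 622, 663, 695 and 644 in Control (-1.95 ± 0.09, adjusted p = 1.9e-16). CDT1, which loads the replicative helicase, was at 2254, 1328 and 1256 with Nutlin-3, against 3604, 4107, 3713 and 3761 in Control (-1.28 ± 0.14). The helicase subunits MCM2 to MCM7 all fell, by 1.01 for MCM2 and 0.99 for MCM6 on the log2 scale, and MCM7 least, by 0.44. E2F1, the activating E2F factor, fell by 0.62 ± 0.08. TYMS, thymidylate synthase, and PCNA, the polymerase clamp that is also a p53 target, were the 2 that rose, by 0.55 and 0.27. CDC6, a loading factor, differed by 0.081 and was not called.

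Letters of the E2F element stand before the starts of several of these genes. TTTNNCGC was searched on both strands of the same windows, and 15 of 21 genes of the list with windows held it (71.4%), against 1221 of 9744 genes (12.5%). Among genes called lower it stood in 321 of 2305 (13.9%), so that most genes that fell did not hold it. The stretches of MCM6 (chr2:135876514-135876633, minus strand), E2F1 (chr20:33686386-33686511, minus strand) and CDT1 (chr16:88803669-88803788, plus strand), on GRCh38.p14, are shown as members with the element in capitals.
MCM6: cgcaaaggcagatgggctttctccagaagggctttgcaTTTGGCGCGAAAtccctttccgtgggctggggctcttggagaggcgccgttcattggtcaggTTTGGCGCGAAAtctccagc
E2F1: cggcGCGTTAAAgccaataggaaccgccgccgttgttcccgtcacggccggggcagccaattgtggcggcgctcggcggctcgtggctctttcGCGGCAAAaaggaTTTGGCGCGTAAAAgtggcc
CDT1: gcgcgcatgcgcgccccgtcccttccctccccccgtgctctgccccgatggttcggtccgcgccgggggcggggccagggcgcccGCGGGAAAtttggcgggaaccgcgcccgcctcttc
In MCM6 and E2F1 some matches on the 2 strands overlap and form 1 longer run of capitals. CCNE1 had 1 window without these letters.

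**Figure D3:**
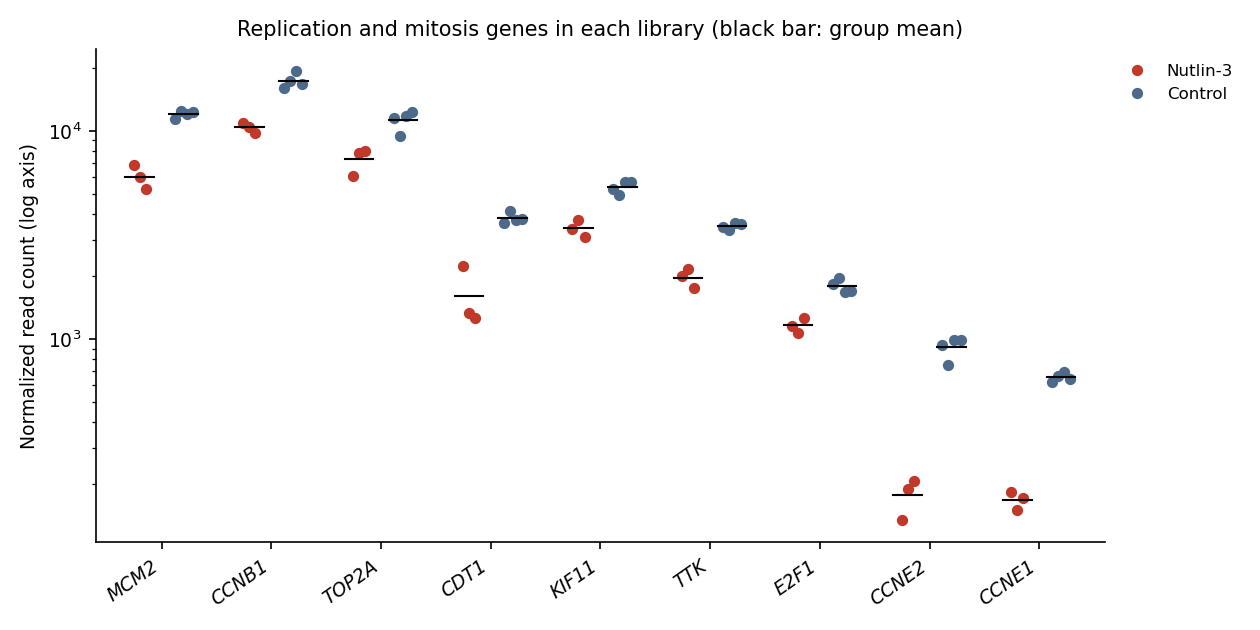
Normalized read count of 9 replication and mitosis genes on a log axis, 1 point per library, Nutlin-3 left of Control, with a black bar at each group mean. The 3 Nutlin-3 libraries lie below the 4 Control libraries in every gene shown; the gap is widest for CCNE2 and CCNE1 and about 1.5-fold for TOP2A.

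Of 23 mitosis genes tested, 12 fell (52.2%, against 20.7% of all rows), 3 rose (18.5% of all rows did) and 8 were not called, with a median of -0.22. CCNB1, the cyclin of CDK1 at mitotic entry, was at 10960, 10440 and 9771 with Nutlin-3, against 16020, 17440, 19350 and 16710 in Control (-0.74 ± 0.08, adjusted p = 8.5e-09). TTK, the spindle checkpoint kinase MPS1, was at 2007, 2162 and 1754 with Nutlin-3, against 3444, 3336, 3600 and 3565 in Control (-0.82 ± 0.12). KIF11, the spindle motor Eg5, fell by 0.66 and TOP2A, topoisomerase II alpha, by 0.63 on the log2 scale. Other members did not follow: MKI67, PLK1 and TPX2 were not called, and PTTG1, securin, rose by 0.63 ± 0.12. The letters TTTGAA of the CHR element, searched on both strands, stood in windows of 11 of 18 genes of the list (61.1%), against 1354 of 9744 genes (13.9%). Among genes called lower they stood in 319 of 2305 (13.8%), so that most genes that fell did not hold them. The 11 included MKI67 and PLK1, which were not called, and CDC25C, which rose by 0.34, and the window of CCNB1 held none. KIF11 carries the letters just before its start, at chr10:92593040-92593129 on the plus strand of GRCh38.p14, in the reverse direction.
KIF11: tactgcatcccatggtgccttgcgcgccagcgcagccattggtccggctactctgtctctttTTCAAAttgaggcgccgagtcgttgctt

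Genes of protein folding in the endoplasmic reticulum rose, a group that is not part of the p53 lists. Of 14 tested, 12 rose and 2 were not called, with a median of 0.87 log2 units (18.5% of all rows rose), and 12 rose without Control library 3. Those without a call were SDF2L1 and CRELD2, which differed by 0.34 and 0.16. HSPA5, the chaperone BiP, was at 173800, 182400 and 189800 with Nutlin-3, against 83580, 86220, 82390 and 83490 in Control (1.12 ± 0.07, adjusted p = 4.7e-14). DNAJB9, a co-chaperone of BiP, was at 2540, 2895 and 3208 with Nutlin-3, against 366, 324, 421 and 416 in Control (2.91 ± 0.12, adjusted p = 2.5e-18). HERPUD1, which serves degradation of misfolded proteins at the membrane, was at 19220, 21450 and 23700 with Nutlin-3, against 3830, 4039, 2517 and 3945 in Control (2.60 ± 0.13). MANF and EDEM1 rose by 1.17 ± 0.08 and 1.24 ± 0.13. The letters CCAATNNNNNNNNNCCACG of the endoplasmic reticulum stress element, searched on both strands, stood in windows of 5 of the 14 genes (35.7%), against 14 of 9744 (0.144%). CRELD2, which was not called, was among the 5, whereas DNAJB9 and HERPUD1 were not. Among genes called higher these letters stood in 9 of 1858 (0.484%), so that most genes that rose did not hold them. They are shown for HSPA5 (chr9:125241344-125241443, minus strand) and XBP1 (chr22:28800570-28800669, minus strand; a transcription factor of this response, 0.58 log2 units higher), on GRCh38.p14.
HSPA5: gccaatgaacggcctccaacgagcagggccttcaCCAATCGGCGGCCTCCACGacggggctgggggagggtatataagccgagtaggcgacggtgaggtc
XBP1: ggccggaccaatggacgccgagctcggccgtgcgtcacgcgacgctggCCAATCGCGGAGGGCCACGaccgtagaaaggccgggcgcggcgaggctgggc

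The integrated stress response, in which ATF4 drives genes of amino acid supply and stress, also rose, and here Control library 3 stood apart. Of 22 tested members 18 rose (81.8%, against 18.5% of all rows) and 4 were not called, with a median of 0.72. Without Control library 3, 17 rose. NUPR1, a stress-induced chromatin protein, was at 1704, 1400 and 1542 with Nutlin-3, against 107, 118, 43.0 and 107 in Control (4.13 ± 0.26, adjusted p = 1.3e-13). CHAC1, a glutathione-degrading enzyme under ATF4, was at 5399, 5896 and 6468 with Nutlin-3, against 3164, 3369, 710 and 3114 in Control (1.42 ± 0.38, adjusted p = 0.0037). DDIT3, the factor CHOP, was at 239, 302 and 336 with Nutlin-3, against 113, 134, 34.6 and 108.3 in Control (1.72 ± 0.27). In each of these genes the groups did not overlap, and Control library 3 was the lowest of all 7. Without that library CHAC1 was 0.88 and DDIT3 1.29 log2 units higher with Nutlin-3. ATF4 itself was at 79640, 72830 and 69660 with Nutlin-3, against 51780, 56850, 40950 and 50280 in Control (0.58 ± 0.08, adjusted p = 8.7e-07). TXNIP, a glucose-responsive inhibitor of thioredoxin, was at 2320, 2723 and 2371, against 1110, 972, 562 and 959 in Control. VEGFA, an angiogenic factor of the hypoxia list, was at 6480, 6501 and 7111, against 5092, 5228, 3300 and 4617 in Control (0.58 ± 0.12). That list gave 2 higher and 4 lower of 16 (12.5% and 25.0%, against 18.5% and 20.7% of all rows). It gave 7 lower with equal library totals and 4 higher without Nutlin-3 library 1.

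**Figure D4:**
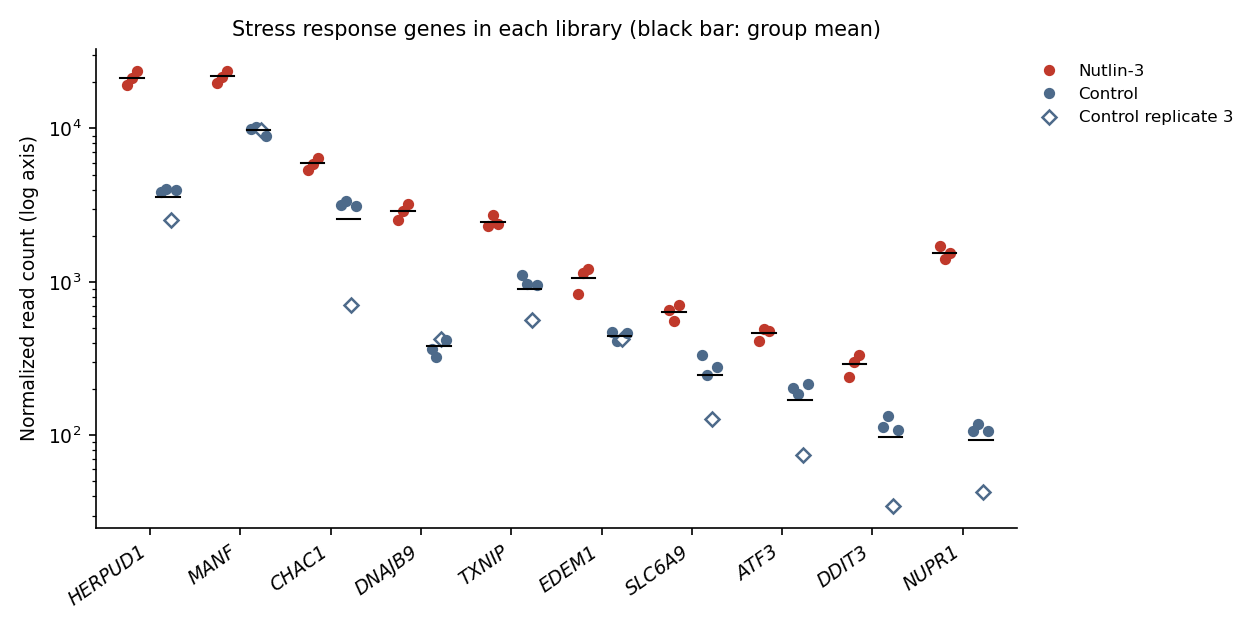
Normalized read count of 10 genes of the endoplasmic reticulum and stress response on a log axis, 1 point per library, Nutlin-3 left of Control; the open diamond is Control replicate 3 and black bars are group means. Nutlin-3 libraries lie above Control libraries in each gene; the diamond is the lowest Control point in HERPUD1, CHAC1, TXNIP, SLC6A9, ATF3, DDIT3 and NUPR1, lies among the others in MANF and EDEM1 and is the highest in DNAJB9.

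The largest single changes lay partly outside these pathways. By the fixed rule the 15 largest rises included NECTIN4, a cell adhesion molecule, at 348, 258 and 263 with Nutlin-3, against 10.7, 19.2, 10.7 and 3.28 in Control (4.79 ± 0.53, adjusted p = 2.5e-08). They also included UNC5B, a netrin receptor, 3.31 ± 0.35 higher, and BHLHA15, the secretory cell factor MIST1, 3.34 ± 0.22 higher. The 15 largest falls included DGAT2, an enzyme of triglyceride synthesis, at 14.5, 11.2 and 14.5 with Nutlin-3, against 107, 109, 110 and 105 in Control (-2.92 ± 0.18, adjusted p = 7.5e-14). FAM111B, a replication-linked protease, was at 328, 402 and 417 with Nutlin-3, against 2003, 1753, 2330 and 2099 in Control (-2.42 ± 0.18). IRS1, the docking protein of the insulin receptor, was at 1282, 1222 and 1105 with Nutlin-3, against 5221, 4516, 4249 and 4910 in Control (-1.97 ± 0.10, adjusted p = 3.9e-16). NECTIN4 and DGAT2 were low-count genes, one in Control and the other with Nutlin-3, so their fold changes are less precise than that of IRS1.

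Of 17 cholesterol synthesis genes tested, 8 rose (47.1%, against 18.5% of all rows) and 1 fell (5.9%, against 20.7%), led by MVD at 0.93 ± 0.13 log2 units. With equal library totals 6 rose and 2 fell. NRF2 targets gave 4 higher and 1 lower of 16 (2 lower with equal library totals or without Nutlin-3 library 1). Heat shock genes gave 4 higher and 6 without a call of 10, and ribosome biogenesis 2 higher and 3 lower of 13. Of all rows 18.5% were higher and 20.7% lower, and ribosome biogenesis was near these shares. Both higher calls of ribosome biogenesis were lost with equal library totals, where 5 were lower, and 1 was left without any of the 4 Control libraries in turn or without Nutlin-3 library 2 or 3. The medians of NRF2 targets, of ribosome biogenesis genes and of the caspase list changed sign with equal library totals (0.098, 0.029 and 0.051 as normalized by the authors; -0.031, -0.10 and -0.078 with equal totals). Of the heat shock calls 1 was left with equal library totals and 2 without Control library 1, Nutlin-3 library 2 or Nutlin-3 library 3. Immediate early genes gave 7 higher and 4 lower of 20 (2 lower without Nutlin-3 library 2 or 3), against 18.5% and 20.7% of all rows. Their lower calls were thus about as frequent as among all rows. FOSL1 was at 10880, 12630 and 12960 with Nutlin-3, against 4330, 4825, 4452 and 4536 in Control. CYR61, a matricellular target of YAP, was instead lower, at 2742, 2459 and 2088, against 5254 to 6133 in Control. MYC and growth genes gave 3 higher and 5 lower of 18 (16.7% and 27.8%, against 18.5% and 20.7% of all rows), and 1 higher and 8 lower with equal library totals. Without Control library 3, Nutlin-3 library 2 or Nutlin-3 library 3, 1 of them was higher, and 3 were lower without either of those Nutlin-3 libraries. MYC itself fell by 0.24 ± 0.07 on the log2 scale, with 1 Nutlin-3 library inside the Control range (19460, 16370 and 16200, against 18560 to 21670). PARP1, the DNA damage sensor, was at 16500, 15380 and 14710 with Nutlin-3, against 19210 to 20250 in Control, and fell by 0.34 ± 0.06.

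Rita, reported to bind p53 rather than MDM2, was the other p53-activating agent of the series. The doses differed, 30 µM against 50 µM, so the comparison is of these 2 conditions and not of potency. Between Nutlin-3 and Rita 8321 rows were called (51.2%), 4028 higher with Nutlin-3 (24.8%) and 4293 lower (26.4%). MDM2 stood at 61920 to 79680 with Nutlin-3, against 11500, 9969, 11180 and 11750 with Rita (2.70 ± 0.09, adjusted p = 1.2e-19). CDKN1A was at 80390 to 91710 with Nutlin-3, against 27940 to 30470 with Rita (1.53 ± 0.11). FAS was at 1482 to 1948 with Nutlin-3, against 304, 295, 318 and 375 with Rita, which overlapped none of the Nutlin-3 values (2.43 ± 0.15, adjusted p = 1.8e-14). FDXR did not differ by the test, at 4987 to 8176 with Nutlin-3 and 4155 to 6146 with Rita (0.21 ± 0.16, adjusted p = 0.27).

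Other genes were lower with Nutlin-3 than with Rita. PMAIP1 was at 3016 to 4113 with Nutlin-3, against 10610 to 11620 with Rita (-1.62 ± 0.16). ATF3 was at 412 to 496 with Nutlin-3, against 2509 to 3247 with Rita (-2.67 ± 0.27). JUN, a subunit of AP-1, was at 214 to 300.2 with Nutlin-3, against 3980 to 4453 with Rita (-4.03 ± 0.12, adjusted p = 2.7e-21). CCNE1 and CCNE2, low with Nutlin-3 at 151 to 184 and 135 to 209, were at 884 to 1126 and 936 to 1158 with Rita. MAML3 and RGL1 were instead higher with Nutlin-3 than with Rita. MAML3, a coactivator of Notch, was at 641 to 853 with Nutlin-3, against 51.9 to 82.7 with Rita (3.53 ± 0.18). RGL1, an exchange factor for Ral, was at 521 to 920, against 6.05 to 49.2 (5.50 ± 0.50). Control values were 478 to 611 for MAML3 and 175 to 206 for RGL1, above every Rita value. Over Control, MAML3 was 0.47 and RGL1 1.92 log2 units higher with Nutlin-3. The call of MAML3 over Control was lost without Control library 3.

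**Figure D5:**
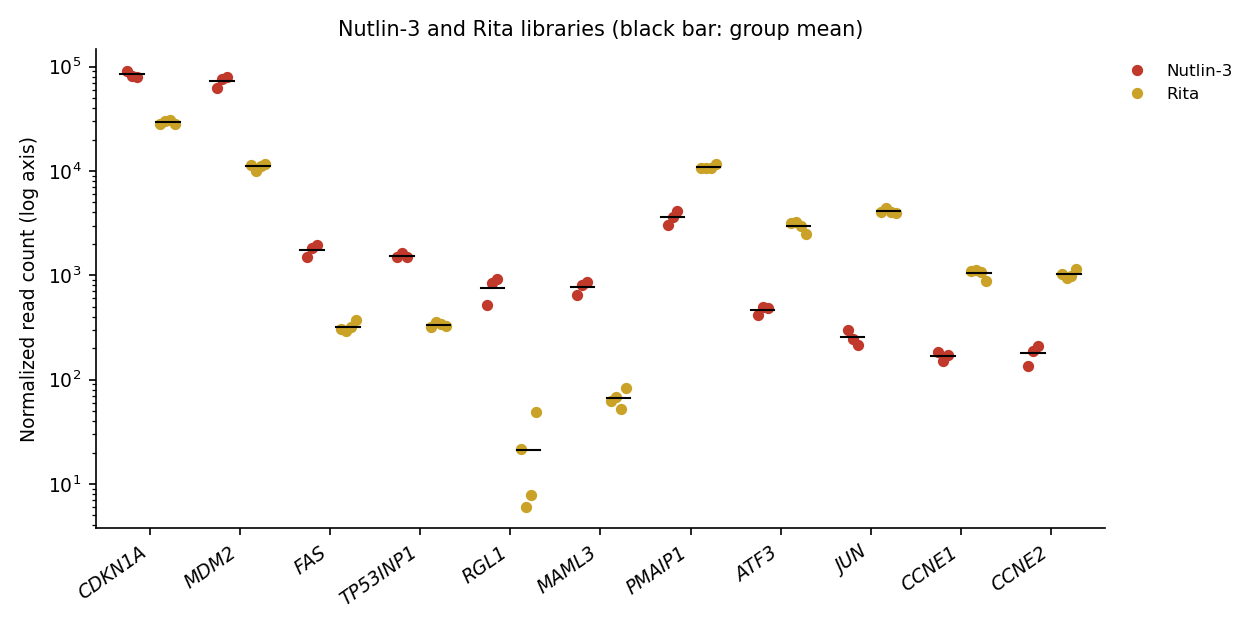
Normalized read count of 11 genes on a log axis, 1 point per library, with Nutlin-3 (30 µM) left of Rita (50 µM) and a black bar at each group mean. Nutlin-3 points lie above Rita points in the first 6 genes, CDKN1A to MAML3, and below them in the other 5, PMAIP1 to CCNE2.

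Several p53 target genes responded less to Nutlin-3 when B87 and DMKG were also present. The difference of the effects, without minus with the pair, was called in 9259 of all rows (56.9%) and in 8 of the 10 core genes tested. FAS rose by 2.56 log2 units without B87 and DMKG, against 0.018 with them, and TP53INP1 by 3.75, against 0.70. GDF15 went the other way, 3.84 without and 5.00 with the pair, and BBC3 showed 2.58 and 2.56, a difference of 0.021 ± 0.267 (adjusted p = 0.95).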

How the data were processed

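The authors deposited 1 table of normalized signal (gene-level reads divided by a factor for each library) with 74834 rows and 31 sample columns; the submitters' processing notes name STAR 2.4.0, FastQC, Picard, SAMtools and DESeq2, and the build mm10, whereas the file header gives hg19 and human genes. Strandedness of the authors' counting, after a stranded TruSeq mRNA kit per the labels, is not given in the sources used here, so overlapping and antisense genes may share reads. Dividing each column by its smallest step gave whole reads, and so depths, for 100% of values within a tolerance of 0.1 step.

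Rows with a mean of at least 10 over all libraries were tested (16259; 13020 with 1 symbol, 823 naming several genes, 2416 with none). The test was limma 3.58.1 with trend (R 4.3.3) on log2(normalized value + 1), all 31 libraries in 1 fit by group with no replicate block (23 residual, 7.14 prior degrees of freedom), Benjamini-Hochberg adjusted over all rows, called under 0.05. Levels are not per length and are not compared between genes. On simulated data for Nutlin-3 against Control, 16259 rows, the share recovered by limma was 53.7% at 1.5-fold, 80.6% at 2-fold and 95.5% at 4-fold, and 7 rows made without a change were called. The rows changed numbered 67, 67 and 66 at these folds, far fewer than the 6359 called in the data. The adjusted threshold depends on how many rows change, so these shares are not the power of this comparison.

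Genes named are the 15 largest rises and falls (1 symbol, mean at least 50, groups not overlapping), up to 4 called members per list by size, a fixed set, and 5 each way against Rita; others named were chosen after their values were seen. Members, lists and tests were chosen with earlier results of these data known. Alternatives were other pseudocounts, filters and scalings, a replicate block, whole reads in edgeR 4.0.16 and in DESeq2 1.42.0, and libraries left out; after the data were seen, rows naming 1 gene and list counts under each alternative were added. Promoter windows came from RefSeq (GRCh38.p14) by symbol. Results on some genes are not reported here.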

Additional observations from a re-analysis of the deposited data

Results flagged for a closer look

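In Control libraries, the value of 1 library stood far from the other 3 in several genes, by the ratio of its gap to the group's range. NUPR1 was at 43.0 in Control replicate 3, against 107 to 118 in the others. CHAC1 was at 710 in the same library, against 3114 to 3369, and HERPUD1 at 2517, against 3830 to 4039. Chance alone flags about 1 in 20 groups of this size. Of 67 Control groups looked at, 3 were set apart, which is about that rate.

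The effect of Nutlin-3 differed with and without B87 and DMKG in 8 of 10 core genes, by the test of the difference in the same limma fit. Expressed as the effect without minus with the pair, on the log2 scale, it was 1.64 for MDM2, 1.17 for CDKN1A, 2.19 for BTG2, 3.05 for TP53INP1, 2.54 for FAS, 0.49 for FDXR and 0.58 for RRM2B. GDF15 had the opposite sign, at -1.16. SESN1 had 0.52 and missed the threshold (adjusted p = 0.052).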

How the results depend on the processing

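The count of rows called between Nutlin-3 and Control stayed within 1.5 times of 6359 under every alternative but the size threshold: 1223 were left when a change of 1 log2 unit or more in either direction was required. It was 6415 with edgeR and 6676 with DESeq2, and 4905 (without Nutlin-3 replicate 3) to 6632 with 1 library left out; 5536 rows were called among those naming 1 gene. With the replicate number as a block it was 6229. Deviations of same-numbered Nutlin-3 and Control libraries correlated at -0.13, -0.10 and -0.0033, which showed no pairing by number. So few correlations cannot exclude that equal numbers mark samples handled together. Of 123 named genes, 99 kept their direction and their side of the threshold in every alternative run, and 22 of 117 called genes lost the call in at least 1. HSP90AB1 turned to -0.036 under quantile normalization, and IRAIN, not called at -1.51, ranged over -2.4 to 0.013 with 1 library left out, the highest without Nutlin-3 replicate 3; the cause was not tested. Under every alternative run, the counts of p53 targets called higher, replication and mitosis genes called lower, and stress response and endoplasmic reticulum genes called higher stayed within 1.5 times; for other lists, counts that moved further with equal totals or 1 library left out stand beside them, and the replication genes called higher were 2, or 1 with equal totals. With 3 Nutlin-3 libraries small changes can be missed. On simulated data 53.7% of 1.5-fold changes were recovered. Far fewer rows were changed there than were called here, so this share is not the power of this comparison.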

Other observations

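Genes of homologous recombination and 1 mismatch repair gene, MSH6, were lower with Nutlin-3, beside the rise of the p53-inducible repair genes. These genes and lists, and the genes named from here on, were chosen after their values were seen. MSH6, a subunit of the complex that recognises mismatches, was at 4162, 4811 and 4253 with Nutlin-3, against 11230, 11140, 11990 and 11050 in Control (-1.37 ± 0.09 log2 units). Of 30 genes of homologous recombination and the Fanconi anaemia pathway, 19 fell and 1 rose, with a median of -0.63 (20.7% of all rows fell and 18.5% rose). RMI1 and RMI2, partners of the BLM helicase, fell by 1.52 and 1.62 on the log2 scale and BARD1 by 1.45. RAD51C was the member that rose, by 0.73 ± 0.08.

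All 6 tested regulators of the unfolded protein response rose, among them EIF2AK3, the kinase PERK, at 3002, 3334 and 3418 with Nutlin-3, against 1279, 989, 1149 and 1125 in Control, and FICD, which modifies BiP, by 2.57 ± 0.29; with equal library totals 5 rose. Genes of transport to the Golgi went both ways: of 20 tested, 12 rose and 5 fell, against 18.5% and 20.7% of all rows. SEC24D, a coat protein of transport vesicles, was at 12160, 14290 and 14780 with Nutlin-3, against 3031, 3132, 3249 and 3240 in Control (2.11 ± 0.10, adjusted p = 1e-16). Of its relatives, SEC24C rose by 0.65 log2 units, whereas SEC24A and SEC24B fell by 0.58 and 0.36.

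The row that joins MIR34A and its host transcript MIR34AHG, a known p53-induced locus, was at 925, 916 and 847 with Nutlin-3, against 128, 76.7, 66.8 and 103 in Control (3.29 ± 0.40, adjusted p = 1.4e-07). Poly(A) RNA of the locus was counted, not the mature microRNA. Its main mature product in RefSeq (chr1:9151735-9151756, minus strand, GRCh38.p14) is shown with the seed, bases 2 to 8, in capitals.
hsa-miR-34a-5p: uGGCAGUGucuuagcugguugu
PTCHD4, a patched-domain protein, was at 71.3 to 101.4 with Nutlin-3, against 17.1 to 26.3 in Control (1.96 ± 0.35, adjusted p = 5e-05). The 20 bases before 1 of its annotated starts match the p53 consensus with 0 mismatches (capitals; chr6:48111198-48111317, minus strand, GRCh38.p14).
PTCHD4: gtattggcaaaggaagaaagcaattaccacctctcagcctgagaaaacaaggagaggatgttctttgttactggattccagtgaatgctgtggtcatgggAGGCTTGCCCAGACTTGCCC
APOBEC3C, a cytidine deaminase that restricts retroelements, was at 3184, 3502 and 4142 with Nutlin-3, against 955, 923, 919 and 903 in Control (1.96 ± 0.12). NLRP1, an inflammasome sensor, was at 212, 231 and 281 with Nutlin-3, against 29.9, 23.4, 38.2 and 15.3 in Control (3.19 ± 0.32). UNG, the uracil glycosylase of base excision repair, was at 936, 933 and 966 with Nutlin-3, against 2461, 2500, 2688 and 2677 in Control (-1.45 ± 0.07).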
